A study of Mus musculus with 2 samples.

Results

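The SOX transcription factors were followed in 4T1 cells kept with PBS or with potassium oxalate. The genes described here are 10 SOX genes (Sox2, Sox4, Sox5, Sox6, Sox7, Sox9, Sox10, Sox11, Sox12 and Sox13) of the 20 SOX genes and 21911 genes listed in the deposited table. They were chosen by family membership, with the oxalate and PBS values of Sox12 already known, so the difference of Sox12 between the libraries is given as a description. 4T1 is an established mouse mammary carcinoma line that spreads to the lung, and the study asked which transcripts differ when such cells meet oxalate, an end product of glyoxylate metabolism. The PBS library came from 5000000 cells held for 48 h with PBS, and the oxalate library from as many cells held for 48 h with potassium oxalate, at 20 µM by the sample characteristics and the paper and 20 mM by the treatment description and the design text. Each condition had 1 library of 1 cell line, so no replicate error exists, no difference was tested, and fewer cells of a kind cannot be told apart from less RNA per cell.

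Values are FPKM (fragments scaled to transcript length and to the mapped fragments of the library), which the authors deposited with 2 decimals. The difference between the libraries is log2((oxalate FPKM + 1)/(PBS FPKM + 1)), a scale that understates changes of low genes. Comparisons took in 10267 genes whose mean of both libraries reached 1 FPKM, and 2-fold was the threshold for calling a gene changed. The median difference of these genes was 0.0031, and 90.1% of them lay within 1.2-fold. From the steps in low FPKM values, the FPKM rested on an estimated 56800000 mapped fragments with PBS and 36500000 with oxalate. Such fragments are called reads below. Of 8 epithelial markers, 7 had a mean of at least 1 FPKM, and the sum of all 8 was 2131.16 FPKM with PBS and 2188.68 FPKM with oxalate. Krt7 had 703.31 FPKM with PBS and 699.04 FPKM with oxalate, and Krt8 had 401.94 and 429.31 FPKM. Of the 6 immune markers, 5 were listed at 0 in both libraries and Cd68 had 7.79 and 7.11 FPKM. The 5 endothelial markers summed to 0.09 and 0.15 FPKM, with Kdr at 0. The 6 fibroblast markers summed to 147.3 and 147.8 FPKM, almost all of it Col1a1 (143.48 and 144.61 FPKM), followed by Pdgfra (1.88 and 1.93 FPKM). Col3a1 had 0.75 and 0.6 FPKM, Col1a2 had 0.88 and 0.33 FPKM, Dcn had 0.31 and 0.33 FPKM, and Lum was listed at 0.

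SOX proteins bind the minor groove of DNA through an HMG box, a fold of helices that bends the DNA, and they usually act beside a partner factor. The family is divided into groups by the likeness of this box. SoxB1 factors such as Sox2 maintain pluripotent and neural progenitor cells, SoxC factors (Sox4, Sox11 and Sox12) are activators known from embryonic progenitors and from tumours, and SoxD factors (Sox5, Sox6 and Sox13) lack an activation domain of their own. SoxE factors direct cartilage and gonad (Sox9) or neural crest and glia (Sox10), and the SoxF factor Sox7 acts in endothelium. In mammary epithelium, Sox4 and Sox9 are among the well known members.

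The coding sequence of the HMG box is shown for Sox4 and Sox11, the SoxC relatives with which the level of Sox12 is compared. The sequences show how alike the DNA-binding part of this pair is. Each line is a window of 79 codons (237 bases) on the coding strand, 5′ to 3′, found by the SOX signature near the start of the box and read from the GENCODE M21 transcripts (GRCm38). Capitals mark the bases at which the sequences differ from each other. The Sox4 window lies on the minus strand at chr13:28952617-28952853 and that of Sox11 on the minus strand at chr12:27342034-27342270, each within the coding part of 1 exon.
Sox4: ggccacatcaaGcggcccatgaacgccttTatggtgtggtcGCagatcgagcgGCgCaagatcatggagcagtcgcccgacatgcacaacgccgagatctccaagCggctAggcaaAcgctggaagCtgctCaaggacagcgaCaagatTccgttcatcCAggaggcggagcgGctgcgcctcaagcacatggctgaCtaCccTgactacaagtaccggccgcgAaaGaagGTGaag
Sox11: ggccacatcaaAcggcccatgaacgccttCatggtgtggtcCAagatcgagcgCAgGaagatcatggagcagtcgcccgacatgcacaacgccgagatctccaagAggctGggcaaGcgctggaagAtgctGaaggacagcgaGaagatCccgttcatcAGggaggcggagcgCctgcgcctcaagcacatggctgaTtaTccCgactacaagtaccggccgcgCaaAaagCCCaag

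Sox4 and Sox11 differed at 25 of 237 bases and at 5 of 79 encoded residues. The box was compared for the members other than Sox12. Over the 5 pairs of these members within a group, the identity of the encoded box ran from 92.4% to 94.9%, and over the 31 pairs from different groups from 46.8% to 63.3%. The box was uninterrupted in Sox2, Sox4 and Sox11, and was split between 2 exons in Sox5, Sox6, Sox7, Sox9, Sox10 and Sox13. No window of 50 bases along the longest Sox12 coding transcript occurred in a transcript of another gene, on either strand. Sox2, Sox6, Sox9, Sox10, Sox11 and Sox13 gave 0 such windows as well, Sox7 had 0.0615% and Sox5 had 0.792%. In Sox4, 54.1% of such windows were also found in Gm26735, a noncoding gene antisense to it that is not listed in the table. The sources used here do not state whether strand was kept, so reads of Sox4 and of Gm26735 cannot be told apart. Other annotated genes that overlap a member are Sox2ot at Sox2, Gm44068, Sox5it and Sox5os1 to Sox5os5 at Sox5, and Gm45025 and Sox6os at Sox6, none of them listed in the table.

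Of the 10 members, 4 had a mean FPKM of at least 1: Sox4, Sox9, Sox13 and Sox12. They came from 3 of the 5 SOX groups that hold a member (SoxC, SoxD and SoxE). These 4 were also the members at 1 FPKM or more in each library taken alone. The other 6 were low in both libraries. Outside the members, Sox15 of the SoxG group also had a mean of at least 1 FPKM. Over all 20 SOX genes, the summed level was 81.29 FPKM with PBS and 92.12 FPKM with oxalate. SoxC genes held 47.3% of this sum with PBS and 52.3% with oxalate, SoxE genes 41.5% and 37.6%, and SoxD genes 9.2% and 8.21%. Sox4 and Sox9 were thus the leading SOX transcripts of these cells in both conditions.

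**Figure D1:**
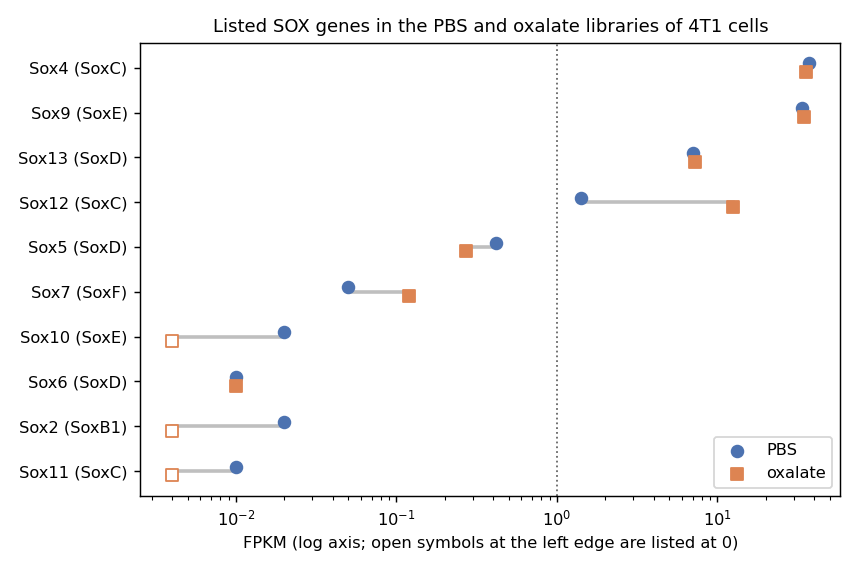
FPKM (log axis) of the 10 listed SOX genes in the PBS library (blue circles) and the oxalate library (orange squares), 1 library per condition, with open symbols for values listed at 0 and a dotted line at 1 FPKM. Sox4, Sox9 and Sox13 keep nearly the same level in both libraries, while Sox12 moves from 1.42 to 12.45 FPKM.

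Sox12, a SoxC activator (ENSMUSG00000051817, chr2:152393611-152398063, minus strand, GRCm38), had 1.42 FPKM in the PBS library and 12.45 FPKM in the oxalate library. The oxalate library was the high one by 11.03 FPKM. The log2 difference was 2.47, and the plain ratio was 8.77. These levels correspond to about 348 reads with PBS and 1959 reads with oxalate, and the ratio then had an exact 95% interval by the Clopper-Pearson method that ran from 7.82 to 9.85. This interval covers counting error only and says nothing of the spread between cultures. In the order of levels over all listed genes, Sox12 stood at place 9969 with PBS and place 5983 with oxalate.

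Of the 4 members compared, 1 was raised at least 2-fold (Sox12) and 0 were lowered. Over all genes compared, 0.292% were raised at least 2-fold and 0.36% were lowered. Since the set was chosen with this contrast in view, nothing is read from that count. In the order of log2 differences Sox12 was at place 2 of 10267. Above it stood Rnf26, a RING finger protein gene, with 0.34 FPKM with PBS and 49.47 FPKM with oxalate. Next below it came Gm28051, which was listed at 0 with PBS and at 2.65 FPKM with oxalate, then Plagl2, a zinc finger factor gene, with a log2 difference of 1.82, and Emp1, a membrane protein gene, with 1.71. With 2 libraries this order is the one likeness of pattern that can be given.

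**Figure D2:**
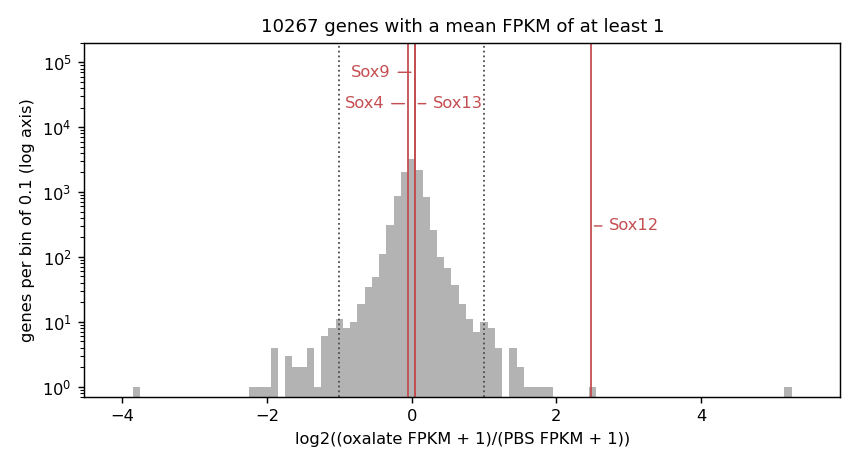
Histogram of log2((oxalate FPKM + 1)/(PBS FPKM + 1)) for the 10267 genes compared (bins of 0.1, log axis for the number of genes), with red lines at the 4 SOX members compared and dotted lines at 2-fold. Sox4, Sox9 and Sox13 fall in the centre, and Sox12 lies at 2.47, with 1 gene (Rnf26) to its right.

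The gene structure of Sox12 bears on how its FPKM can be read. GENCODE M21 lists 2 coding transcripts, 1 unspliced of 4453 bases and 1 of 4169 bases with 2 exons. Both hold the same coding sequence of 942 bases, stop codon aside, and the shorter one lacks a 264-base intron in the 3′ untranslated region. The lengths differ by 1.07-fold. How the authors shared reads among transcripts is not given in the sources used here, and its part in the result was not tested. No annotated gene overlaps Sox12 on either strand. The nearest coding genes on chromosome 2 stayed close to their PBS level. Zcchc3, a zinc finger protein gene 13.9 kb away, had 2.38 and 2.43 FPKM, Nrsn2 (17.0 kb) and 6820408C15Rik (17.5 kb) were listed at 0 in both libraries, and Trib3, a pseudokinase gene induced by stress (49.6 kb), had 3.86 FPKM with PBS and 4.25 FPKM with oxalate.

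Sox4, the SoxC member best known in breast tumours (ENSMUSG00000076431, chr13:28948919-28953713, minus strand), had the highest listed FPKM of the SOX genes in each library. It had 37.01 FPKM with PBS and 35.7 FPKM with oxalate, a log2 difference of -0.05. The oxalate value was the lower one, at a ratio of 0.965 with a counting interval from 0.935 to 0.996. This interval holds for the deposited scaling only. The log2 difference of Sox4 was -0.03 at the same FPKM sum and -0.104 at the same upper quartile. Sox11 (ENSMUSG00000063632, chr12:27334264-27342574, minus strand), known from neural progenitors, had 0.01 FPKM with PBS, about 5 reads, and was listed at 0 with oxalate. In oxalate 3 reads of this transcript would be worth 0.00989 FPKM, about the PBS value. With 2 decimals, 0.01 FPKM with PBS could stand for 2.4 to 7.1 reads and 0 with oxalate for up to 1.5. With so few reads, no difference is read from Sox11. The log2 difference of Sox12 exceeded the mean of those of Sox4 and Sox11 by 2.51, and that of Sox4 alone by 2.53. Within the SoxC group, Sox12 went from 3.69% of the summed FPKM with PBS to 25.9% with oxalate, and Sox4 from 96.3% to 74.1%. Sox4 stood 26.1-fold above Sox12 with PBS and 2.87-fold above it with oxalate. The SoxC sum was 38.44 FPKM with PBS and 48.15 FPKM with oxalate. In the listed values Sox12 made up the whole of the increase, as those of Sox4 and Sox11 were no higher with oxalate.

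**Figure D3:**
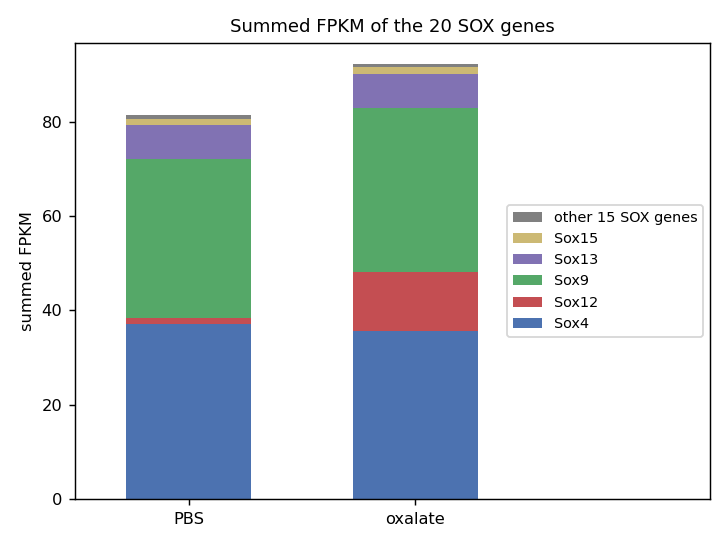
Summed FPKM of the 20 SOX genes in the PBS and oxalate libraries (1 bar per library), stacked by gene from a baseline of 0. The Sox12 segment is 1.42 FPKM with PBS and 12.45 FPKM with oxalate, while the Sox4, Sox9, Sox13 and Sox15 segments differ little.

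Sox9, the SoxE regulator of cartilage and gonad that also marks mammary luminal progenitors (ENSMUSG00000000567, chr11:112782224-112787760, plus strand), had 33.69 FPKM with PBS and 34.64 FPKM with oxalate. The log2 difference was 0.04, and the ratio of 1.03 had a counting interval from 0.993 to 1.06. Its direction turned with the scaling, to -0.014 when the libraries were set to the same upper quartile. Sox9 lay just below Sox4: Sox4 was 1.1-fold higher with PBS (interval 1.07 to 1.13) and 1.03-fold higher with oxalate (0.993 to 1.07), so that in the oxalate library these neighbours did not differ beyond counting error. Sox10 (ENSMUSG00000033006, chr15:79154908-79165240, minus strand), the SoxE factor of neural crest and glia, had 0.02 FPKM with PBS, about 2 reads, and was listed at 0 with oxalate, where 3 reads would be worth 0.0388 FPKM. No fold is given for it.

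Sox13, a SoxD factor known from T cell development (ENSMUSG00000070643, chr1:133382303-133424377, minus strand), had 7.05 FPKM with PBS and 7.28 FPKM with oxalate. Its log2 difference was 0.04, which turned to -0.007 at the same upper quartile, with a counting interval of the ratio from 0.942 to 1.13. With PBS it stood 4.96-fold above Sox12 (4.4 to 5.61), and with oxalate Sox12 stood 1.71-fold above Sox13 (1.57 to 1.86). Sox12 and Sox13 were the members whose order turned between the libraries, together with members of at most 0.02 FPKM. The intervals of these ratios between genes cover counting error only. Sox13 has 3 coding transcripts between 1842 and 3693 bases, and the lengths the authors used are not given in the sources used here. Sox5 (ENSMUSG00000041540, chr6:143828425-144781977, minus strand), which acts with Sox6 and Sox9 in cartilage, had 0.42 FPKM with PBS and 0.27 FPKM with oxalate, below the filter in both. Its log2 difference was -0.16. The plain log2 ratio was -0.64, with an interval from -1.24 to -0.02 on about 81 and 34 reads. These read numbers rest on the mean of 7 coding transcripts between 614 and 7243 bases. The interval ends near 0 and holds for the deposited scaling only. Sox6 (ENSMUSG00000051910, chr7:115470872-116038796, minus strand) had 0.01 FPKM in each library, about 3 and 2 reads.

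Sox2, the SoxB1 pluripotency factor (ENSMUSG00000074637, chr3:34650405-34652461, plus strand), had 0.02 FPKM with PBS, about 2 reads, and was listed at 0 with oxalate. As 3 reads would be worth 0.04 FPKM in the oxalate library, no difference was detectable. Sox7, a SoxF factor of endothelium (ENSMUSG00000063060, chr14:63943673-63950732, plus strand), had 0.05 FPKM with PBS and 0.12 FPKM with oxalate. The ratio was 2.4, on about 9 and 14 reads, and its interval ran from 0.976 to 6.34 and so included no difference. The endothelial markers Pecam1 (0.04 and 0.05 FPKM) and Cdh5 (0.04 FPKM in each library) were at a similarly low level.

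Among the 10 SOX genes outside the set, Sox15, the only SoxG gene, had 1.47 FPKM with PBS and 1.59 FPKM with oxalate, with a log2 difference of 0.07. Sox21 had 0.05 and 0.06 FPKM. Sox18 had 0.07 FPKM with PBS, about 6 reads, and was listed at 0 with oxalate, where 3 reads would be worth 0.0507 FPKM. The remaining 7 (Sry, Sox1, Sox3, Sox8, Sox14, Sox17 and Sox30) were listed at 0 in both libraries.

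**Figure D4:**
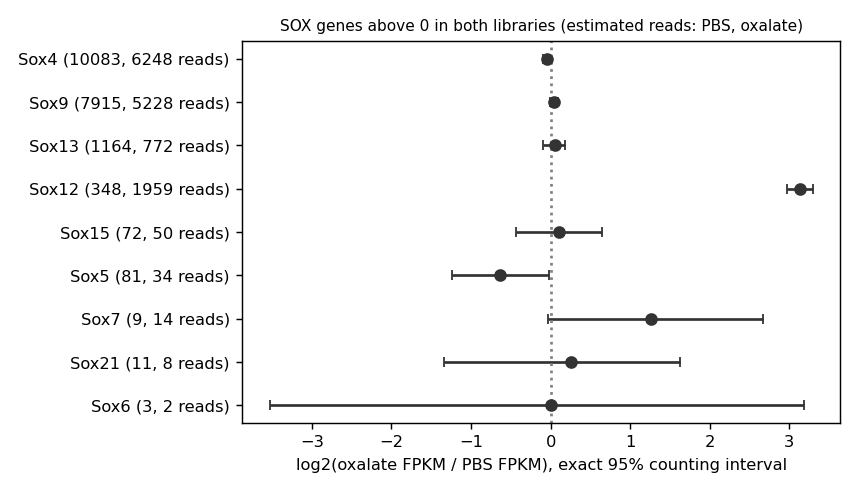
Log2 ratio of the oxalate to the PBS FPKM (points, x axis) with its exact 95% counting interval (bars) for the 9 SOX genes above 0 in both libraries, with the estimated reads of the PBS and oxalate libraries in parentheses. Sox12 lies at 3.13 with a narrow interval, whereas intervals widen to several log2 units for Sox6, Sox7 and Sox21, which have few reads.

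Other genes of the pathway were read from lists written from general knowledge. HMG-box relatives are factors that carry a related box, among them the TCF/LEF factors that carry WNT signals. Of 21 such genes 17 were compared, 5 were higher and 12 lower with oxalate, and 0 changed 2-fold. Over all genes compared, 50.6% were higher with oxalate, and the shares past 2-fold were 0.292% raised and 0.36% lowered, so a count of 0 in a list of this size is near the background. The same shares stand beside the counts of the next lists. The median log2 difference of the relatives was -0.054, against 0.0031 over all genes compared, with values from -0.18 to 0.38. Hmgb2, a chromatin protein gene, had 288.75 and 278.1 FPKM, and Ssrp1, which encodes a histone chaperone subunit, had 210.72 and 210.37 FPKM. The largest value was that of Hbp1, an HMG-box repressor named after its value was seen, with 9.42 FPKM with PBS and 12.6 FPKM with oxalate.

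Partners and modifiers of SOX proteins, such as coactivators and importins, were read in the same way. Of 23 genes 14 were compared, 10 were higher and 4 lower, and 0 changed 2-fold, again near the background, with a median of 0.083. Ctnnb1, which encodes the WNT effector beta-catenin, had 412.24 and 435.08 FPKM. Pou5f1, Pou3f1 and Pou3f2, which encode POU partners of SoxB1 and SoxC factors, were listed at 0 in both libraries. Pou2f1, another POU gene of this list, had 16.35 FPKM with PBS and 17.45 FPKM with oxalate. Of 36 genes reported as SOX targets in various tissues, 16 were compared, 11 were higher and 5 lower, and 0 changed 2-fold, near the background as well, with a median of 0.076. Spp1, which encodes osteopontin, had 383.77 and 404.4 FPKM, and Ccnd1, which encodes cyclin D1, had 298.86 and 301.26 FPKM. Tead2, a gene downstream of SoxC factors named after its value was seen, had 52.75 FPKM with PBS and 51.91 FPKM with oxalate. The log2 differences of the 16 targets compared ran from -0.17 (Stmn1) to 0.15 (Vcam1). The cartilage targets Col2a1, Acan, Col9a1 and Matn1 were listed at 0 in both libraries. Of the other collagen genes in this list, Col11a2 had 0.34 FPKM with PBS and 0.12 FPKM with oxalate, and Col11a1 had 0.01 FPKM in each.

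**Figure D5:**
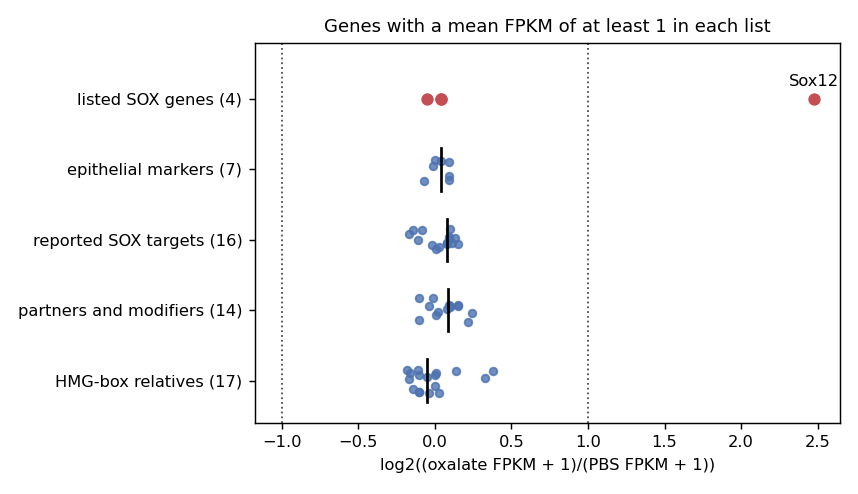
Log2((oxalate FPKM + 1)/(PBS FPKM + 1)) of each gene with a mean FPKM of at least 1 in the listed SOX set (red) and in 4 lists (blue, vertical bars at the median), with the number of genes in parentheses and dotted lines at 2-fold. The list genes stay between -0.18 and 0.38, and Sox12 lies alone at 2.47.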

How the data were processed

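RNA of 4T1 cells was sequenced by the authors in 2 libraries, 1 with PBS and 1 with potassium oxalate, after oligo(dT) enrichment and random priming. The authors deposited FPKM values per Ensembl gene, rounded to 2 decimals. The submitters' processing notes name Bowtie2 2.2.8 and TopHat2 2.1.1; the quantification, build and annotation are not given in the sources used here. Symbols, coordinates and lengths came from GENCODE M21 (GRCm38), in which 21848 identifiers were found and 63 were not.

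The members and lists were chosen with earlier results of these data known. The pseudocount was 1, the filter a mean of at least 1 FPKM, and the threshold 2-fold. Named were all SOX genes, in each list the 2 highest genes and any changed 2-fold (some items that this rule or the sequence comparison covers are not reported here), the coding genes beside Sox12, and the genes next to it in the order of differences; others were named after their values were seen. No test was made. Reads were estimated from the step of FPKM times length in genes of 1 transcript shorter than 900 bases: 0.0176 in PBS and 0.0274 in oxalate, where 99.2% of 122 and 100% of 107 values lay within 0.25 of a whole read. The mean coding transcript length was used for each gene, so reads are estimates. Intervals cover counting error only, and a value of 0 was read against 3 reads. The step fit was tested on simulated data. Alternatives were other pseudocounts, filters, thresholds and scalings. Scripts ran in Python 3.11.15 with pandas 2.3.3 and numpy 2.4.6, intervals came from scipy 1.17.1, and plots from matplotlib 3.10.9.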

Additional observations from a re-analysis of the deposited data

How the results depend on the processing

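No paired analysis was possible because PBS and oxalate are represented by 1 library each, and no replicate could be left out. The log2 difference of Sox12 moved from 2.47 to 3.05 with a pseudocount of 0.1 and to 3.13 with 0.001, and the excess over the mean of Sox4 and Sox11 from 2.51 to 3.14 and 4.89. The last value rests on Sox11, listed at 0 with oxalate, and the excess over Sox4 alone, chosen after seeing the data, was 3.18 at that pseudocount. Under the 3 scalings they ran from 2.42 to 2.49 and from 2.48 to 2.52. The number of members changed 2-fold was 1 under each alternative run, and the number expressed was 4, or 5 at a minimum of 0.1 FPKM. The count of 0 changed genes in the lists of HMG-box relatives, partners and targets was the same under each alternative run. Scaling to the same upper quartile shifted the median of all genes from 0.0031 to -0.047, Sox4 from -0.051 to -0.104 and Sox9 from 0.039 to -0.014. Depth limits the members with a mean below 0.1 FPKM, which rest on at most 14 reads.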
